A study of Sus scrofa with 24 samples.

Results

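Lipid droplet and adipose genes are described here in 4 pig tissues through 8 members: PLIN2, CIDEB and DGAT2 (droplet genes of enterocytes and hepatocytes), PNPLA2 (a lipase), and PLIN1, CIDEC, AQP7 and LPL (genes best known from fat cells). The rule picks members by gene symbol, and they are 8 of the 10675 genes that the array names here. The array carries 22 probes named for them, and a gene with several probes was represented by the one with the highest mean over the 24 arrays. All 8 were tested, among 8977 tested genes.

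Tissue came from 6 crossbred pigs (Sus scrofa) aged 10 weeks, weaned at 28 days and fed without restriction. The study asked how expression profiles differ between tissues. Peyer is jejunum that holds a Peyer's patch (lymphoid follicles in the gut wall), and Jejunum is jejunum of the same animal without a patch. With Spleen and Liver these make 4 groups of 6 one-colour arrays, 1 for each animal, numbered 68, 69, 70, 71, 73 and 75. No group received a treatment, and all are whole tissue pieces. In whole tissue, fewer cells of a type and less RNA per cell cannot be told apart.

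A lipid droplet is a store of triglyceride wrapped in a single phospholipid layer and coated with proteins such as the perilipins. Enterocytes fill droplets from absorbed fat before they export it in chylomicrons, hepatocytes use theirs to build lipoproteins, and adipocytes keep 1 large droplet as the energy store of the body. DGAT enzymes make the triglyceride, CIDE proteins enlarge droplets or help to load lipoproteins, perilipins guard the surface, and lipases release the fatty acids again.

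Sequences of some of the probes are shown, each written 5′ to 3′ as the scanner files give it. The PLIN1 probes are shown because they did not give the same pattern: O15023, which represents the gene, overlaps A_72_P001626 by 11 bases, in capitals, and A_72_P077326 has no such overlap. For O15023 and A_72_P001626 30 of the 60 bases are printed.
PLIN1 A_72_P001626: attagatatgggctctatgGCCACAGTTCA
PLIN1 O15023: GCCACAGTTCAttcccagccctatttttga
PLIN1 A_72_P077326: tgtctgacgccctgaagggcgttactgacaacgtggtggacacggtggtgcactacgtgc
Of the 3 DGAT2 probes these 2 share 27 of their 60 bases, in capitals.
DGAT2 O8336: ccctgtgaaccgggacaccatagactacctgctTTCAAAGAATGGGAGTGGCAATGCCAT
DGAT2 A_72_P288804: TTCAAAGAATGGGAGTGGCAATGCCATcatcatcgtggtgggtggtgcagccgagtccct
Probes of PLIN2, CIDEC, AQP7 and LPL are shown as well, and none has a capital stretch. The CIDEC probe shown is not the one that represents CIDEC, which is A_72_P015096, and no CIDEB or PNPLA2 probe is shown. The AQP7 sequence is carried by both AQP7 probes on the array, letter for letter. The LPL sequence is 1 of the 5 probes made for the pig RefSeq entry of LPL, since the probe that represents LPL is described in the file as made from the baboon (Papio anubis) sequence.
PLIN2 A_72_P088596: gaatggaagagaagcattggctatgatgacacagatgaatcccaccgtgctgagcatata
CIDEC O9141: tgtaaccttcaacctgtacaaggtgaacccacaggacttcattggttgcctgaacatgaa
AQP7 A_72_P106716: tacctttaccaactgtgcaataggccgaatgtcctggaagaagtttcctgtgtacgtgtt
LPL A_72_P715658: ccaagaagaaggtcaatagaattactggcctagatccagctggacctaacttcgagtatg

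A level is the log2 probe signal minus the 75th percentile of its own array, so 0 is a bright probe and each step of 1 is a 2-fold change. Levels of different genes come from different probes and were not compared. Differences are on the same log2 scale and carry their standard error (SE), and one was called where it was 2-fold or more and its limma adjusted p was under 0.05. The 75th percentile of the signal ranged over 876.7 to 2262 on Peyer arrays, 275.4 to 1098 on Spleen, 680.9 to 1001 on Jejunum and 423.8 to 525.7 on Liver, and 60.39% to 75.6% of probes were well above background. Peyer and Jejunum share slides, as do Spleen and Liver, whereas in every other pairing the tissue and the set of slides cannot be told apart. The Peyer array of animal 71 stood apart: its mean level over 4 B cell markers was -2.01, below every other Peyer array (highest 1.06), and over 7 enterocyte markers it was 6.84, the highest Peyer value (lowest 5.23) and inside the Jejunum range of 6.65 to 7.0. Its part in the results was tested by leaving it out.

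PLIN2, the droplet coat protein of most cell types, was higher in both lymphoid tissues than in Jejunum or Liver. Its levels ran from -1.22 through a median of 0.22 to 0.67 in Peyer, -0.51 through 0.15 to 0.47 in Spleen, -1.55 through -1.19 to -0.7 in Jejunum, and -2.22 through -1.29 to -0.79 in Liver. Spleen did not overlap Jejunum or Liver, while Peyer overlapped both only through animal 71, whose Peyer level of -1.22 lay below its own Jejunum level of -1.08. PLIN2 rose by 1.22 ± 0.27 in Peyer over Jejunum (limma adjusted p 0.0013, 5 of 6 animals), with 1.79, 0.72 and 1.15 on the 3 shared slides. It rose by 1.36 ± 0.27 in Spleen over Liver (limma adjusted p 9.5e-05, 6 of 6 animals), by 1.74, 1.18 and 1.17 on the shared slides. Peyer and Spleen differed by -0.01 ± 0.27 and Jejunum and Liver by 0.13 ± 0.27, neither called. A second PLIN2 probe, O11670, was well above background on 3 Peyer, 2 Spleen, 0 Jejunum and 1 Liver arrays, did not pass the filter on dim probes, and read -0.04 for Spleen minus Liver.

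CIDEB, which in mouse liver loads lipid onto very low density lipoprotein, was high in Jejunum and Liver and low in Spleen. Levels ran from 1.5 through 1.91 to 3.44 in Peyer, -0.03 through 0.06 to 0.25 in Spleen, 2.81 through 3.06 to 3.61 in Jejunum, and 3.13 through 3.6 to 3.97 in Liver. Every Spleen array lay below every array of the other tissues. CIDEB fell by 3.49 ± 0.25 in Spleen against Liver (11.2-fold, limma adjusted p 1.9e-11) and by 3.06 ± 0.25 in Spleen against Jejunum (8.36-fold, 3.5e-10). Peyer lay between: its difference was 2.07 ± 0.25 from Spleen and -1.42 ± 0.25 from Liver, both called. Against Jejunum the Peyer difference was -0.99 ± 0.25 (limma adjusted p 0.004), lower in 6 of 6 animals and just short of the 2-fold threshold. Without the Peyer array of animal 71 that difference was -1.25 and was called. Jejunum and Liver differed by -0.43 ± 0.25, which was not called (adjusted p 0.15). One probe, named CIDE-B in the file, measured this gene.

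DGAT2 (diacylglycerol acyltransferase, which makes triglyceride from diacylglycerol) had the widest spread of tissue levels among the droplet genes. It ran from -2.67 through -1.64 to 1.24 in Peyer, -3.67 through -3.3 to -2.1 in Spleen, -0.72 through -0.25 to 1.76 in Jejunum, and 3.33 through 3.7 to 4.16 in Liver. Liver stood above every other array, and the highest Peyer and Jejunum values both came from animal 71. DGAT2 fell by 6.72 ± 0.51 in Spleen against Liver (106-fold, limma adjusted p 4.4e-11), and the 3 slides gave -6.86, -6.62 and -6.68. The other DGAT2 probes, O8336 and A_72_P564909, gave -8.3 and -5.88 for that pair. It fell by 3.48 ± 0.51 in Jejunum against Liver (11.2-fold) and by 4.97 ± 0.51 in Peyer against Liver (31.4-fold). Spleen was also below Jejunum, by a difference of -3.24 ± 0.51, and Peyer was 1.75 ± 0.51 above Spleen, where O8336 gave 3.38 and A_72_P564909 gave 1.17. In Peyer against Jejunum the difference was -1.49 ± 0.51 (limma adjusted p 0.024, lower in 6 of 6 animals), called with all animals but not without animal 69 (-1.26, adjusted p 0.11), 73 (-1.3, 0.088) or 75 (-1.49, 0.058), nor in a fit of those 12 arrays alone (0.072). All 3 DGAT2 probes had the same sign and were called in each of the 6 comparisons.

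PNPLA2 (adipose triglyceride lipase, which starts the breakdown of stored triglyceride) was called in 1 of its 6 differences. Levels ran from 2.06 through 2.15 to 3.04 in Peyer, 1.32 through 1.44 to 1.89 in Spleen, 2.58 through 3.01 to 3.25 in Jejunum, and 1.21 through 2.09 to 2.71 in Liver. Jejunum lay wholly above Spleen, and Liver overlapped each of the others. It fell by 1.49 ± 0.22 in Spleen against Jejunum (2.8-fold, limma adjusted p 3.1e-06), which the authors' table put at -0.67. For that pair the dimmer probe A_72_P178071 gave -1.3, called lower, and A_72_P076816 gave -0.88, short of 2-fold and not called. Peyer minus Jejunum was -0.67 ± 0.22 and not called, whereas the 2 dimmer PNPLA2 probes gave -1.22 and -1.23 and were both called lower. The sign of Peyer minus Liver depended on the probe: it was 0.21 with the representative probe, -0.81, short of 2-fold, with A_72_P178071, and -1.07, called lower, with A_72_P076816. In Peyer minus Spleen the last probe gave -0.35 and the representative 0.81 ± 0.22, neither called.

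**Figure D1:**
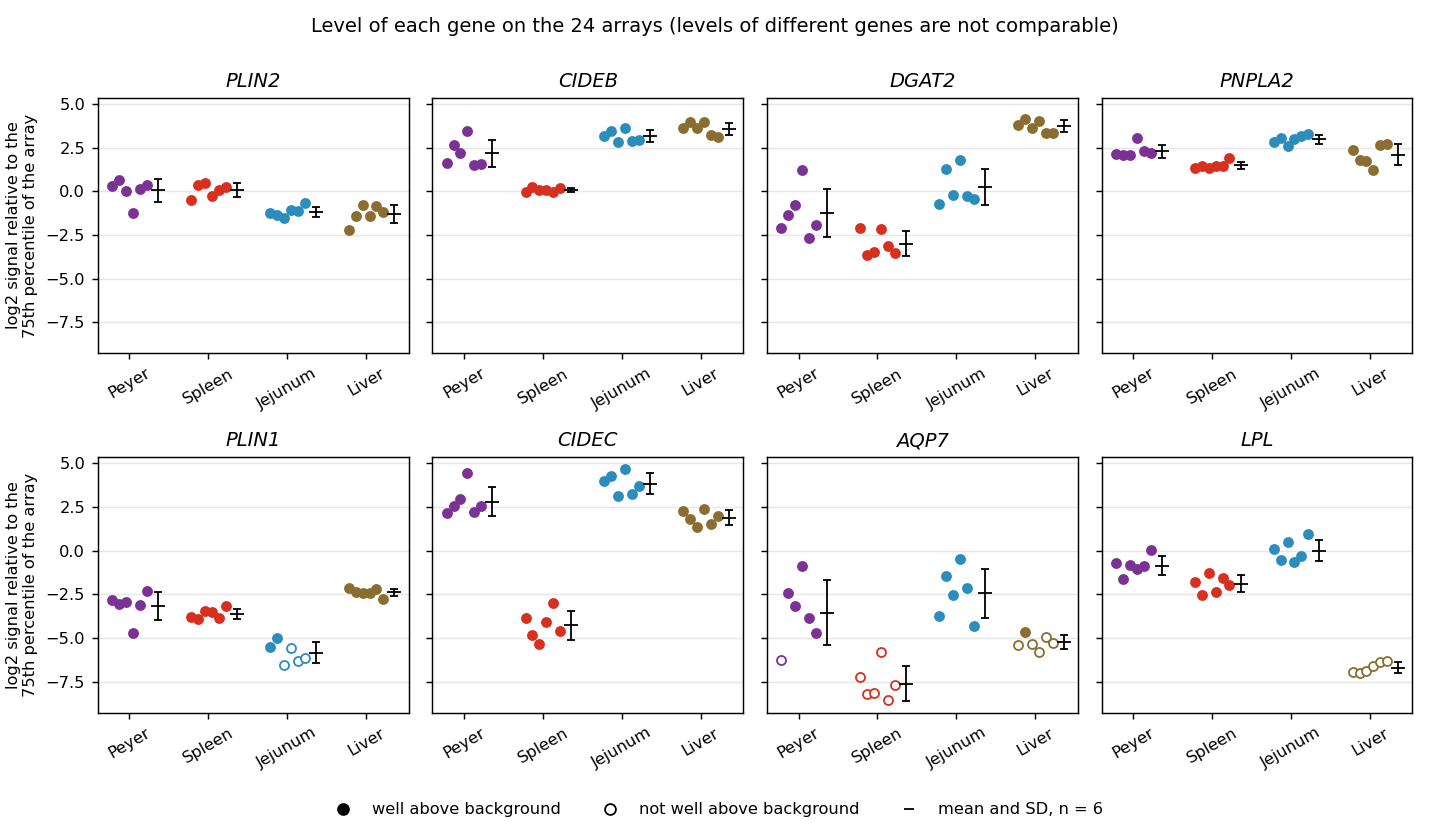
Log2 level of each of the 8 genes on every array (y axis, relative to the 75th percentile of the array) for the 6 Peyer, Spleen, Jejunum and Liver samples, with animals in ascending order from left to right in each group. Bars give the mean and SD, and open points were not well above background: LPL is open on all 6 Liver arrays, AQP7 on all 6 Spleen arrays and PLIN1 on 4 Jejunum arrays.

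PLIN1 is the perilipin that gates lipolysis on the adipocyte droplet. Its representative probe was lowest in Jejunum and highest in Liver. Levels ran from -4.71 through -2.99 to -2.32 in Peyer, -3.88 through -3.67 to -3.18 in Spleen, -6.54 through -5.84 to -4.97 in Jejunum, and -2.75 through -2.38 to -2.15 in Liver. Every Jejunum array lay below every array of the other tissues, and 2 of the 6 were well above background. PLIN1 rose by 2.68 ± 0.29 in Peyer over Jejunum (6.39-fold, limma adjusted p 1.6e-06, 6 of 6 animals), with 2.3, 2.22 and 3.51 on the shared slides. It fell by 3.45 ± 0.29 in Jejunum against Liver (11-fold) and by 1.22 ± 0.29 in Spleen against Liver, and rose by 2.23 ± 0.29 in Spleen over Jejunum. Peyer minus Spleen (0.45 ± 0.29) and Peyer minus Liver (-0.78 ± 0.29) were not called. With normexp background correction, which adds an offset of 50 and compresses dim signals, Peyer minus Jejunum was 0.74, Spleen minus Liver -0.78 and Spleen minus Jejunum 0.8, each below the 2-fold threshold. The authors' table gave -0.77 and 0.55 for the last 2.

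The 3 PLIN1 probes differed. A_72_P001626, which overlaps the representative probe, gave 2.86 for Peyer minus Jejunum and -3.48 for Jejunum minus Liver. It was well above background on 5 Peyer, 1 Spleen, 0 Jejunum and 5 Liver arrays and did not pass the filter, and its bounds were at least 1.53-fold higher in Peyer than in Jejunum and at least 2.34-fold lower in Jejunum than in Liver. A_72_P077326 was well above background on 1 of 24 arrays, in Spleen, and gave -0.19 for Peyer minus Jejunum. The tissue pattern of PLIN1 therefore rests on a pair of neighbouring probes. The representative probe is annotated with another RefSeq entry than A_72_P077326, and A_72_P001626 with neither of these. Whether each probe matches pig PLIN1 was not tested, so the PLIN1 differences given here are those of the representative probe.

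CIDEC, a droplet protein that in mouse fat cells passes lipid from small droplets to large ones, was bright in both jejunal tissues and Liver and dim in Spleen. Its representative probe was still well above background on 6 of 6 Spleen arrays. Levels ran from 2.18 through 2.57 to 4.43 in Peyer, -5.31 through -4.33 to -3.01 in Spleen, 3.11 through 3.84 to 4.69 in Jejunum, and 1.39 through 1.91 to 2.4 in Liver. The gap between the highest Spleen array and the lowest array of any other tissue was wider than the range within any tissue. CIDEC fell by 8.11 ± 0.38 in Spleen against Jejunum (276-fold, limma adjusted p 1.1e-14) and by 6.17 ± 0.38 in Spleen against Liver (72.1-fold, 7.4e-13). Peyer was 7.09 ± 0.38 above Spleen (136-fold, 2e-13). On the other CIDEC probes, A_72_P223532 and O9141, Spleen was well above background on 0 of 6 arrays and at least 66.5-fold and 69.1-fold lower than Jejunum.

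CIDEC was also 1.93 ± 0.38 higher in Jejunum than in Liver (3.82-fold, limma adjusted p 0.00011), and the other probes gave 1.8 and 1.79. In the authors' deposited table this difference had the opposite sign, -1.74, and so did Peyer minus Liver, at -2.83 against 0.92 ± 0.38 here, which was not called. These tissues lie on different slides, and no source used here says how that table was centred. In Peyer against Jejunum CIDEC was lower by a difference of -1.01 ± 0.38 (limma adjusted p 0.035, 6 of 6 animals), barely past the 2-fold threshold, with -1.76, -0.2 and -1.09 on the shared slides. Leaving out animal 68 (-0.86), 69 (-0.88), 73 (-1.01, adjusted p 0.051) or 75 (-0.99) ended that call, as did centring each array on its median (-0.84).

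AQP7, the channel through which fat cells release glycerol, was well above background mainly in the jejunal tissues, on 5 of 6 Peyer, 0 of 6 Spleen, 6 of 6 Jejunum and 1 of 6 Liver arrays. Levels ran from -6.24 through -3.51 to -0.89 in Peyer, -8.56 through -7.91 to -5.82 in Spleen, -4.32 through -2.31 to -0.49 in Jejunum, and -5.82 through -5.29 to -4.64 in Liver. Jejunum overlapped neither Spleen nor Liver, but the spread among animals was wide (SD 1.85 in Peyer and 1.42 in Jejunum). Its probe passed the filter on dim probes through Jejunum alone. AQP7 was at least 8.13-fold lower in Spleen than in Jejunum and at least 3.79-fold higher in Peyer than in Spleen. As measured, Spleen minus Jejunum was -5.17 (limma adjusted p 8.9e-07) and Peyer minus Spleen 4.06 (3.6e-05), and these p-values do not test the bounds. AQP7 rose by 2.79 ± 0.7 in Jejunum over Liver (limma adjusted p 0.0014). There 1 of the 6 Liver arrays was well above background, so the size of that difference rests on Liver signals mostly at background. Spleen minus Liver was also called (adjusted p 0.0043), but with 0 Spleen arrays and 1 Liver array well above background it is a difference between background signals on 11 of the 12 arrays, with means of -7.61 in Spleen and -5.23 in Liver.

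The jejunal difference in AQP7 was -1.1 ± 0.7 for Peyer minus Jejunum, lower in 6 of 6 animals but not called (limma adjusted p 0.2). Without the Peyer array of animal 71 it was -1.63 and called (adjusted p 0.041). Peyer minus Liver, with the same limit in Liver, was 1.69 ± 0.7 and called (adjusted p 0.034), but the call was lost when animal 69 (1.57), 70 (1.59), 71 (1.04) or 73 (1.81) was left out. Normexp background correction ended the calls of AQP7 in Peyer against Spleen (0.89), Jejunum against Liver (1.04), Peyer against Liver (0.19) and Spleen against Liver (-0.69). The authors' table gave -0.08, -0.13, -0.73 and -0.65 for the same pairs, the first 3 with the opposite sign, and -0.52 for Spleen against Jejunum. Both AQP7 probes carry the same sequence and so give the technical spread within an array. Over 24 arrays they differed by a median of 0.07 and by at most 1.49. On the 12 arrays where both were well above background they differed by at most 0.4.

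LPL (lipoprotein lipase, which frees fatty acids from circulating triglyceride) was at background in Liver and above it everywhere else. Levels ran from -1.64 through -0.86 to 0.02 in Peyer, -2.55 through -1.85 to -1.26 in Spleen, -0.66 through -0.09 to 0.96 in Jejunum, and -6.97 through -6.75 to -6.31 in Liver. No Liver array was well above background. LPL was at least 31.6-fold higher in Jejunum than in Liver, at least 17.5-fold higher in Peyer than in Liver and at least 8.41-fold higher in Spleen than in Liver. As measured, these log2 differences were 6.7 (limma adjusted p 5.8e-16), 5.84 (7.4e-15) and 4.79 (2.8e-13), and the p-values do not test the bounds. The difference of Spleen from Liver was smaller, though still called, with normexp (1.4) and in the authors' table (1.99), both below its bound. LPL fell by 1.91 ± 0.28 in Spleen against Jejunum. It was 1.05 ± 0.28 higher in Peyer than in Spleen, a call lost without animal 75 (0.87). For Spleen minus Jejunum and Peyer minus Spleen the authors' table had the opposite sign, 0.69 and -1.28, and for Peyer minus Liver it gave 0.71. Peyer minus Jejunum was -0.86 ± 0.28 (adjusted p 0.017), below the 2-fold threshold although lower in 6 of 6 animals and alike on the 3 slides (-0.95, -0.85 and -0.78).

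The 5 LPL probes made for its pig RefSeq entry were also well above background on 0 of 6 Liver arrays each. All 5 were called higher in Jejunum than in Liver. The brighter ones (A_72_P232767, A_72_P742824 and A_72_P760377) were higher by at least 13.2-fold, 15.3-fold and 12.7-fold, and A_72_P715658 and A_72_P732308 by at least 1.34-fold and 1.23-fold. In Spleen against Liver, the brighter probes were called higher and the dimmer ones, at 0.47 and 0.71, were not. For Peyer minus Spleen, A_72_P232767 (1.02) and A_72_P742824 (1.49) were called higher. A_72_P760377 (0.92), A_72_P715658 (0.58) and A_72_P732308 (0.16) were not called there. Another probe, O15020, named Lpl in the file, was well above background on 3 of the 24 arrays and gave -0.43 for Jejunum minus Liver.

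**Figure D2:**
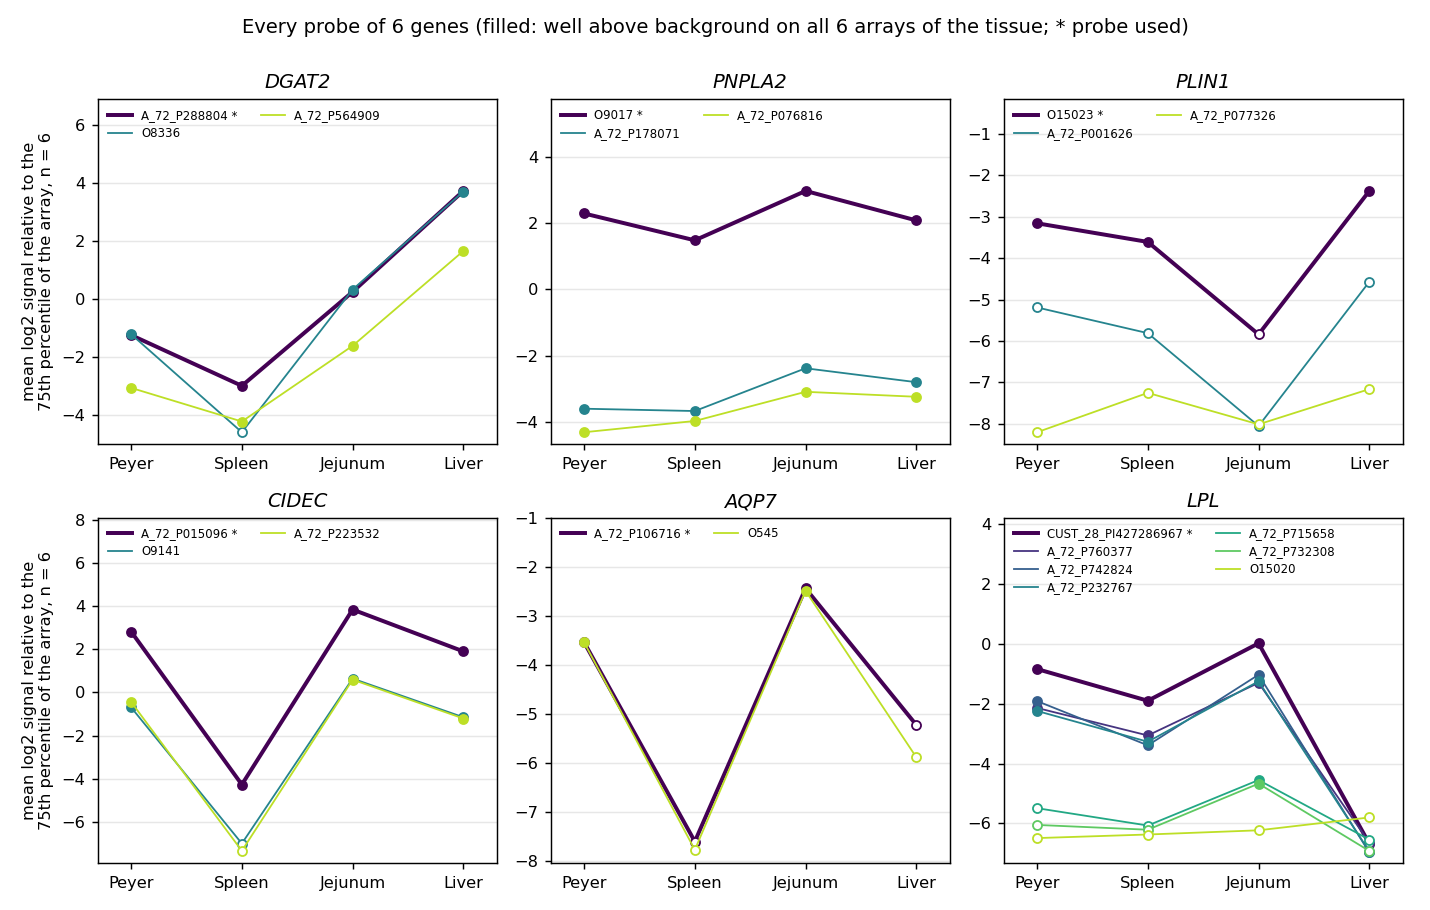
Mean log2 level (y axis, n = 6) in Peyer, Spleen, Jejunum and Liver for every probe of the 6 genes with usable repeat probes, with the representative probe as a thick line marked by an asterisk. Filled points were well above background on all 6 arrays of the tissue. Probes of CIDEC run in parallel. Those of DGAT2 do so outside Spleen, where O8336 is at -4.61, A_72_P564909 at -4.24 and the representative probe at -3.01. The dimmest PLIN1 probe does not follow the other PLIN1 probes, and LPL probe O15020 does not follow the other LPL probes.

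Jejunum with a patch and jejunum without one come from the same animals and slides, and 4 of the 8 members were called between them, against 13.7% of all tested genes. PLIN2 and PLIN1 were higher in Peyer, against 6.33% of tested genes, and DGAT2 and CIDEC were lower, against 7.33%. CIDEB, PNPLA2, AQP7 and LPL had differences of -0.99, -0.67, -1.1 and -0.86 and were not called. PLIN1 alone did not overlap between these groups, 1 of 8 against 11.4% of all tested genes, and the median difference over all tested genes was -0.11. With the Peyer array of animal 71 left out, 6 members were called, 2 higher and 4 lower. Median centring left 3 calls, 2 higher and 1 lower, and normexp 3, 1 higher and 2 lower.

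Cell markers moved between the jejunal tissues as well. Of 7 enterocyte markers measured, 3 were called lower in Peyer and 0 higher, with a mean level of 5.23 to 6.84 in Peyer and 6.65 to 7.0 in Jejunum. Of 4 B cell markers 3 were called higher, at -2.01 to 1.06 in Peyer and -5.07 to -4.1 in Jejunum, and 5 of 6 smooth muscle markers were called lower, at 2.02 to 5.3 in Peyer and 4.19 to 5.52 in Jejunum. The part of these shifts in the members' differences was not tested.

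**Figure D3:**
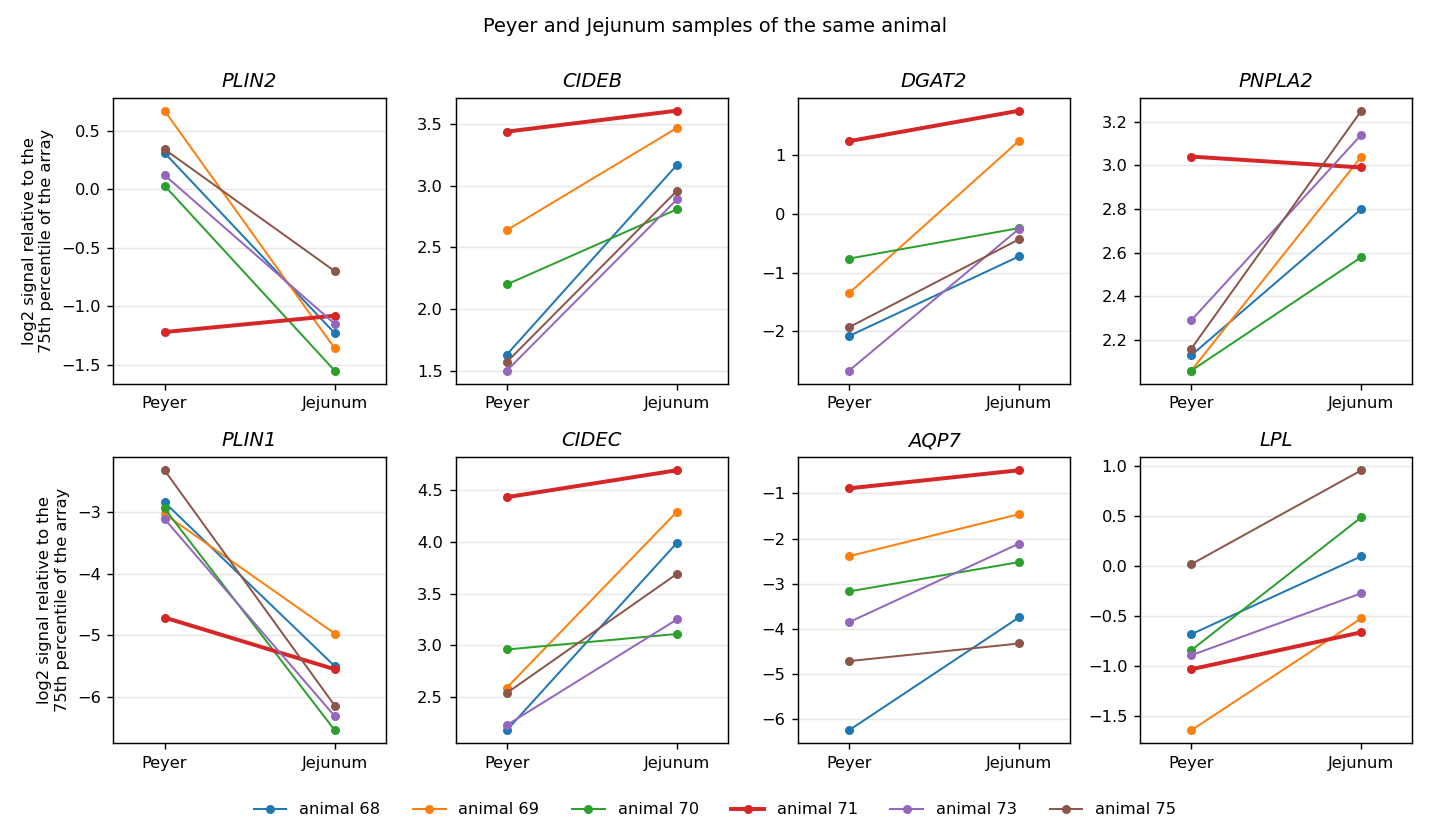
Log2 level of each gene (y axis, own scale in each panel) in the Peyer and Jejunum samples of the same animal, joined by a line. The thick line is animal 71, where PLIN2 was -1.22 in Peyer and -1.08 in Jejunum. CIDEB, DGAT2, CIDEC, AQP7 and LPL were lower in Peyer in all 6 animals, and PLIN1 was higher in all 6.

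Spleen against Liver, also within slides, gave 7 called members, against 39.8% of all tested genes. PLIN2 and LPL were higher in Spleen, 2 of 8 against 21.5% of tested genes, and CIDEB, DGAT2, PLIN1, CIDEC and AQP7 were lower, 5 of 8 against 18.4%, with AQP7 at background on all but 1 of these arrays. PNPLA2, at -0.6 ± 0.22, was not called. The same 7 did not overlap between the groups, where 51.2% of all tested genes did not, and the median difference of all tested genes was 0.11. For AQP7, however, the highest Spleen and the lowest Liver level both round to -5.82. The other AQP7 probe, O545, which carries the same sequence, did overlap there. All 6 measured hepatocyte markers were called lower in Spleen (mean level -3.66 to 0.11 in Spleen and 8.49 to 8.81 in Liver), and all 6 smooth muscle markers were called higher (4.05 to 5.19 in Spleen and -0.76 to 0.4 in Liver). Of 6 macrophage markers 4 were called higher and 1 lower (3.02 to 3.57 in Spleen and 2.28 to 2.99 in Liver), the lower one being VSIG4 at -4.49, a receptor of the liver's own macrophages. Of 4 B cell markers 3 were called higher (-0.15 to 0.5 in Spleen and -4.05 to -3.51 in Liver). Their part in the members' differences was not tested.

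In Jejunum against Liver, as whole tissues, 5 members were called, against 34.1% of all tested genes. CIDEC, AQP7 and LPL were higher in Jejunum, 3 of 8 against 17.8% of tested genes, and DGAT2 and PLIN1 were lower, 2 of 8 against 16.3%. These 5 did not overlap between the groups, against 49.4% of all tested genes. PLIN2, CIDEB and PNPLA2 had differences of 0.13, -0.43 and 0.89 and were not called, and the median over all tested genes was -0.01. The split moved with the values used: the authors' table gave 4 calls, 1 higher and 3 lower. Of the cell markers, 6 of 7 for enterocytes were called higher (mean level 6.65 to 7.0 in Jejunum and -1.11 to -0.51 in Liver) and 5 of 6 for hepatocytes lower (-1.58 to -0.65 in Jejunum and 8.49 to 8.81 in Liver). All 6 for smooth muscle were called higher (4.19 to 5.52 in Jejunum and -0.76 to 0.4 in Liver), and 4 of 6 for macrophages lower (0.44 to 0.95 in Jejunum and 2.28 to 2.99 in Liver). How far these shifts enter the members' differences was not tested.

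The other pairings also cross slide sets. In Peyer against Spleen 5 members were called, against 25.6% of tested genes, and all 5 (CIDEB, DGAT2, CIDEC, AQP7 and LPL) were higher in Peyer, a direction called in 10.8% of tested genes (14.8% were called lower). CIDEB, PNPLA2 and CIDEC did not overlap between these groups, 3 of 8 against 31.5%, and the median of all tested genes was -0.1. In Peyer against Liver 5 were called, against 41% of tested genes, with PLIN2, AQP7 and LPL higher (19.8% of tested genes) and CIDEB and DGAT2 lower (21.2%). DGAT2 and LPL did not overlap there, 2 of 8 against 48.3%, and the median was -0.02. In Spleen against Jejunum all 8 were called, against 31.1%, with PLIN2 and PLIN1 higher (15.5% of tested genes) and the other 6 lower (15.6%). All 8 also did not overlap, against 46.2%, and the median was 0.14. Comparisons that share a tissue share its arrays, so their counts are not separate evidence.

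**Figure D4:**
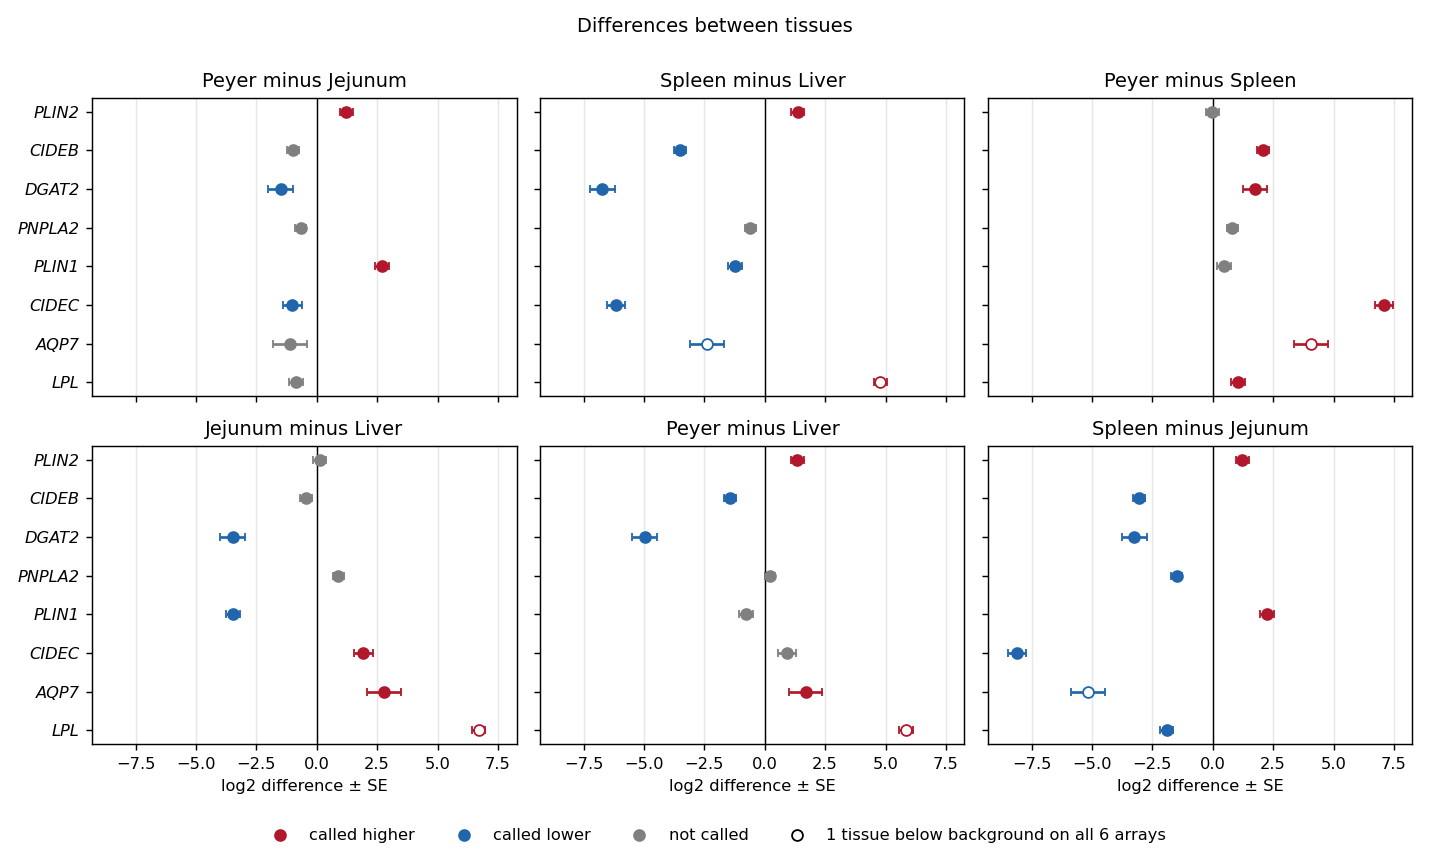
Log2 difference (x axis) with its SE for the 8 genes in the 6 comparisons, the first-named tissue minus the second, over 24 arrays. Red points were called higher, blue lower and grey not called. Open points have 1 tissue below background on all 6 arrays, so that only a bound is known, such as at least 31.6-fold for LPL in Jejunum over Liver.

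By role, the droplet genes and the adipocyte genes did not separate cleanly by tissue. PLIN2, CIDEB and DGAT2 were well above background on all 6 arrays of each tissue, and of these PLIN2 had its highest medians in Peyer and Spleen, whereas CIDEB and DGAT2 had theirs in Liver. Among the adipocyte genes CIDEC, AQP7 and LPL had their highest medians in Jejunum, and PLIN1 in Liver. In Jejunum against Liver, 3 adipocyte genes were called higher and 1 lower, while of the droplet genes 1 was called lower and none higher. In Spleen against Jejunum both groups had 1 member called higher, PLIN2 and PLIN1, and the rest lower.

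Fat cells themselves were looked for through their defining markers. ADIPOQ, the adiponectin gene, has 9 probes, and 0 of them were well above background on all 6 arrays of any tissue. The representative ADIPOQ probe was well above background on 1 Peyer, 0 Spleen, 2 Jejunum and 0 Liver arrays. In Jejunum, 8 of the 9 ADIPOQ probes were highest in animal 69, up to -3.09 there on a probe whose highest value among the other Jejunum arrays was -7.45. That array had an LPL level of -0.52, among the 3 lowest in Jejunum, a PLIN1 level of -4.97, the highest, and CIDEC and AQP7 levels of 4.29 and -1.46, the second highest of each. On that array FABP4 was also the highest in Jejunum on 6 of its 8 probes, at -0.25 on the representative probe, against at most -0.62 on the other Jejunum arrays. FABP4, which macrophages and endothelium also express, had a median of -2.29 in Peyer and -1.03 in Jejunum, and of -3.79 in Spleen and -1.9 in Liver. It was called lower in Peyer than in Jejunum (-1.11 ± 0.33, limma adjusted p 0.01). LEP, the leptin gene, was between -4.2 and -2.74 on all arrays with its representative probe. That was the only 1 of its 3 probes well above background on all 6 arrays of any tissue. Over the 13 measured of 16 adipocyte markers the mean level was -1.56 to -0.68 on Peyer arrays, -1.65 to -0.82 on Spleen arrays, -0.79 to -0.16 on Jejunum arrays and -1.1 to -0.85 on Liver arrays. How much RNA from fat cells adds to the members' levels was not tested.

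Other genes of the pathway were described by lists, and each count is of the members tested. In Peyer against Jejunum no gene of the 4 lists was called higher by limma, where 2, 0, 2 and 1 had a higher level at an unadjusted p under 0.05. Among all tested genes 6.33% were called higher and 7.33% lower in this comparison. Of 17 triglyceride synthesis genes 4 were called lower, with a median difference of -0.52 where all tested genes had -0.11. They included DGAT1, the second acyltransferase of that last step (-1.53 ± 0.24), and AGPAT2, which makes phosphatidic acid (-1.44 ± 0.25). Of 14 droplet coat and formation genes 2 were called lower (median -0.46): PLIN3 (-1.31 ± 0.24), a perilipin that binds new droplets, and MTTP (-1.1 ± 0.35), which loads lipid onto apolipoprotein B. Of 15 lipolysis genes 0 were called in this limma fit (median -0.33), and at an unadjusted p under 0.05 there were 2 higher and 5 lower. Of 12 glycerol and fatty acid handling genes 4 were called lower (median -0.8), among them the fatty acid transporter SLC27A2 (-1.38 ± 0.25) and the aquaglyceroporin AQP10 (-1.29 ± 0.43).

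Jejunum against Liver split most lists, where 17.8% of all tested genes were called higher and 16.3% lower. Of the 17 synthesis genes 5 were called higher and 7 lower (median -0.75): AGPAT4 (4.61 ± 0.24) and GPAT3 (2.37 ± 0.36), enzymes of the glycerol phosphate pathway, were higher, while ACSL1 (-6.25 ± 0.16), which activates fatty acids, and SCD (-5.18 ± 0.36), which desaturates them, were lower. Of 14 coat genes 1 was higher and 4 lower (median -0.52), with PLIN3 at 2.96 ± 0.24 and the droplet proteins METTL7B at -12.23 ± 0.54 and HSD17B13 at -7.66 ± 0.15. METTL7B was well above background on 4 of 6 Jejunum arrays.

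Lipolysis genes were mostly lower in Jejunum than in Liver, 2 higher and 9 lower of 15 (median -1.79). The lipases LIPE (2.38 ± 0.17) and MGLL (2.33 ± 0.25) were higher, and the patatin-like PNPLA3 was lower (-8.2 ± 0.46). MGLL was well above background on 3 of 6 Liver arrays. Of 12 glycerol and fatty acid genes 5 were higher and 4 lower (median 0.56). The intestinal fatty acid binding protein FABP2 was at least 6130-fold higher in Jejunum, and AQP3, a glycerol channel, rose by 5.05 ± 0.3. AQP9, the glycerol channel of hepatocytes, was at least 196-fold lower in Jejunum, and the glycerol phosphate dehydrogenase GPD1 fell by 3.99 ± 0.36.

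In Spleen against Liver each list had more genes called lower than higher, where 18.4% of all tested genes were called lower and 21.5% higher. Of 17 synthesis genes 2 were higher and 12 lower (median -1.93), with AGPAT4 at 2.85 ± 0.24 and AGPAT1 at 1.3 ± 0.09 against SCD at -6.21 ± 0.36 and ACSL1 at -5.2 ± 0.16. Of 14 coat genes 0 were called higher by limma (2 at an unadjusted p under 0.05) and 8 lower (median -1.18), and of 15 lipolysis genes 2 were higher and 10 lower (median -2.43). The higher ones were MGLL (4.19 ± 0.25), which was well above background on 3 of 6 Liver arrays, and LIPE (2.57 ± 0.17). Of 12 handling genes 3 were higher and 6 lower (median -1.07), with AQP3 at 4.99 ± 0.3 and the fatty acid receptor CD36 at 4.93 ± 0.3. In Spleen against Jejunum 15.5% of all tested genes were called higher and 15.6% lower. There the 4 lists had 2, 0, 2 and 2 genes called higher and 9, 5, 5 and 7 called lower, in the order above. One of the higher ones, AQP9 (1.19), was well above background on 1 of the 6 Spleen arrays and on 0 of the 6 Jejunum arrays. In that pairing AGPAT2 was at -5.99 ± 0.25 and DGAT1 at -5.52 ± 0.24, and MTTP at -9.56 ± 0.35.

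Peyer against Spleen had the same lists at 6, 3, 4 and 7 higher with 1, 1, 3 and 2 lower. Peyer against Liver had them at 3, 1, 2 and 5 higher with 8, 7, 10 and 3 lower. Among all tested genes 10.8% were called higher and 14.8% lower in Peyer against Spleen, and 19.8% and 21.2% in Peyer against Liver. The coat gene counted as lower in Peyer against Spleen was PLIN5 (-1.19), which no Peyer or Spleen array showed well above background, and AQP9, 1 of the 2 lower handling genes (-1.43), was well above it on 0 Peyer arrays and 1 Spleen array. In Peyer over Spleen, AGPAT2 was at 4.55 ± 0.25, MTTP at 8.45 ± 0.35 and ANGPTL4, an inhibitor of lipoprotein lipase, at 1.83 ± 0.27, with the lysosomal lipase LIPA at -1.69 ± 0.15. In Peyer over Liver, PLIN3 was at 1.65 ± 0.24 and LIPE at 2.82 ± 0.17.

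The members also varied between animals within a tissue. Over the 6 animals, Peyer and Jejunum levels correlated at r = 0.9 for AQP7, 0.83 for LPL, 0.8 for CIDEB, 0.76 for DGAT2 and 0.57 for CIDEC, and at 0.18 for PNPLA2, -0.11 for PLIN2 and -0.28 for PLIN1. These are descriptions over n = 6, and the paired samples lay on the same slide, 2 animals to a slide. AQP7 shows it by animal: in Peyer it was -6.24, -2.39, -3.17, -0.89, -3.85 and -4.71 in animals 68, 69, 70, 71, 73 and 75, and in Jejunum -3.74, -1.46, -2.52, -0.49, -2.11 and -4.32. Animal 71 was highest in both tissues, and animals 68 and 75 were the lowest pair in both. LPL ran otherwise, with animal 75 highest in both (0.02 in Peyer and 0.96 in Jejunum).

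In the limma F-test of animal beside tissue 0 of 8 members reached an adjusted p under 0.05, against 4.42% of all tested genes. At an unadjusted p under 0.05 there were 4: LPL (0.0052), CIDEB (0.0076), DGAT2 (0.01) and AQP7 (0.031). With quantile normalization LPL reached an adjusted p of 0.045. Deviations of each array from its tissue mean correlated over the 24 arrays at r = 0.79 between DGAT2 and AQP7, 0.78 between CIDEB and DGAT2 and 0.75 between DGAT2 and CIDEC, and at -0.6 between AQP7 and LPL. Without the Peyer array of animal 71 these were 0.71, 0.64, 0.63 and -0.64. The points share arrays and scaling, and no test was made.

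The genes whose levels over the 24 arrays were most like each member were named by Pearson's r, as a description in which tissue differences dominate. For PLIN2 they were APOBEC3B (0.949), CD53 (0.944) and P2RY10 (0.938). CIDEB was closest to ILVBL (0.982), GOT1 (0.978) and ABCD3 (0.975), and DGAT2 to FBP1 (0.977), MSRA (0.976) and EHHADH (0.974). PNPLA2 had the loosest matches, NPEPPS (0.916), PAK4 (0.898) and TPD52 (0.895). PLIN1 was closest to SLC15A2 (0.96), CAMK1D (0.947) and TMEM9 (0.937), and CIDEC to LRAT (0.989), GLOD5 (0.988) and PDZK1 (0.988). AQP7 was closest to GPT (0.919), TMEM30A (0.918) and TBX3 (0.917), and LPL to HK2 (0.975) and C1H15orf61 (0.973).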

How the data were processed

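RNA of 24 samples was labelled with Cy3 and hybridised to 1 one-colour Agilent array each, per the labels' protocols. The deposited scanner files hold intensity values that Agilent Feature Extraction 10.10.1.1 had background-subtracted, per the file headers and the submitters' processing notes. The authors also deposited a table of log2 values whose sorted columns are identical (median 8.236), as quantile normalization gives. No source used here states its centring. Its tissue differences correlated with those of the scanner at r = 0.961 and 0.965 within slides, and at 0.318 to 0.71 across slides, over 42342 probes. It was used as an alternative only.

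From the scanner signals, log2 levels were taken relative to the 75th percentile of each array. Of 60305 probes, 42650 were kept: a probe had to be well above background throughout 1 tissue (6 arrays) and free of outlier flags (136 probes had one). No probe was saturated. A gene below background on all arrays of a tissue is given a bound, taken per array of that tissue against the dimmest probe called well above background, or against the probe itself where brighter. The number of arrays limits the precision.

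Tissues were compared in R 4.3.3 by the lmFit and eBayes functions of limma 3.58.1, with all 24 arrays in 1 fit (residual df 20, prior df 2.97). Benjamini-Hochberg adjustment ran over all probes kept. The fit was tested on simulated data. The same animals gave all tissues, so the numbers pair the samples: deviations from tissue means of the 36 same-animal pairs of arrays had a mean r of 0.17 (lowest -0.021, 26 over 0.1), against -0.034 for 180 other pairs.

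Alternatives were median centring, quantile normalization, normexp, the authors' table, no filter, animal or slide as a block, array weights, the 12 arrays of each pair, leaving out animals or the Peyer array of animal 71, and other probes. CIDEB was found through a RefSeq synonym. Each tissue comparison names all 8 members, up to 2 called genes per list at either end, and the 3 genes most like each member, except that some genes this rule names are not reported here. The members and lists were chosen with earlier results of these data known. No coordinates are given, since no genome build is named in the files.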

Additional observations from a re-analysis of the deposited data

Results flagged for a closer look

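Of 32 sets of 6 arrays (8 genes in 4 tissues), 5 held an array far from the rest, with a gap to its neighbour beyond Dixon's critical value for 6 samples. Chance alone gives about 1 such set in 20, and 4 of the 5 were the same array, the Peyer sample of animal 71. On that array PLIN2 was -1.22 (the other Peyer arrays lay between 0.03 and 0.67), PLIN1 was -4.71 (others -3.11 to -2.32), PNPLA2 was 3.04 (others 2.06 to 2.29) and CIDEC was 4.43 (others 2.18 to 2.96). Each of these values lay on the Jejunum side of the other Peyer arrays. The remaining one was PNPLA2 in Spleen of animal 75, at 1.89 (others 1.32 to 1.45).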

How the results depend on the processing

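Over the 6 comparisons, 693 of 744 member results under another setting stayed called or uncalled, 30 lost the call, 14 gained one and 7 changed sign with a call on at least 1 side, all 7 in the authors' table across slide sets. Another 11 changed sign with no call on either side, such as PLIN1 in Peyer minus Liver at 0.25 in the authors' table. The 7 with a call, from the authors' table, included AQP7 at -0.08 and LPL at -1.28 in Peyer minus Spleen. They also included CIDEC at -1.74 and AQP7 at -0.13 in Jejunum minus Liver. The rest of the 7 were CIDEC at -2.83 and AQP7 at -0.73 in Peyer minus Liver, and LPL at 0.69 in Spleen minus Jejunum. That table called 4 members in Spleen minus Jejunum, normexp called 3 in Peyer minus Spleen, and quantile normalization gave 1 animal effect; the cause was not tested. With animal as a replicate block 4, 7, 5, 5, 5 and 8 members were called for Peyer against Jejunum, Spleen against Liver, Peyer against Spleen, Jejunum against Liver, Peyer against Liver and Spleen against Jejunum, and the pairing changed no call. Leaving out each animal gave 2 to 5, 7 to 7, 4 to 5, 5 to 5, 4 to 6 and 8 to 8 calls in the same order, with 2 in Peyer minus Jejunum without animal 73 and without animal 75.

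Of 96 results from other probes 12 changed sign, 3 with no call on either side and 9 with one. The 9 were PLIN1 probe A_72_P077326 at -0.19 in Peyer minus Jejunum, PLIN2 probe O11670 at -0.04 in Spleen minus Liver, -1.31 in Jejunum minus Liver and -0.4 in Peyer minus Liver, PNPLA2 probe A_72_P076816 at -1.07 in Peyer minus Liver, and LPL probe O15020 at -0.57 in Spleen minus Liver, -0.12 in Peyer minus Spleen, -0.43 in Jejunum minus Liver and -0.69 in Peyer minus Liver. Among these 9 only the PNPLA2 probe passed the filter on dim probes. The 3 were PNPLA2 at -0.81 in Peyer minus Liver and -0.35 in Peyer minus Spleen, on probes that passed it, and PLIN1 at -0.95 in Peyer minus Spleen. Scaling moved the median of all probes by over 0.1: it was -0.156 in Peyer minus Jejunum as reported and 0.024 with median centring, and -0.04 in Peyer minus Liver as reported and -0.382 with normexp. Signal over background limits AQP7 and PLIN1, whose calls normexp ended in 3 comparisons or more each.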
